A study of Homo sapiens with 14 samples.

Results

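The mesendoderm transcription factors EOMES, MIXL1, GSC, LHX1, MESP1 and OTX2 were followed by RNA sequencing and ribosome profiling while human embryonic stem cells became pancreatic progenitors. Members were the rows of the deposited count table that carry these 6 gene symbols, of 59050 symbols in all, and each of the 6 symbols was found. The cells were HUES8, an established human embryonic stem cell line of WT genotype, taken at definitive endoderm (DE), at early pancreatic progenitors (PP1) and at late pancreatic progenitors (PP2). There were 2 libraries of DE, 2 of PP1 and 3 of PP2 per assay, which made 14. RNA libraries held total RNA depleted of ribosomal RNA, and Ribo libraries held RNA fragments bound by ribosomes. Undifferentiated HUES8 cells were not analysed here, so no value before DE stands beside these. Whether the libraries of a stage came from separate differentiations was not stated in the sources used here, so the p-values cover only the spread between these libraries and that spread may be technical.

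Mesendoderm is the transient population of the gastrulating embryo that passes through the anterior primitive streak and gives rise to definitive endoderm and mesoderm. Nodal signals acting through SMAD2, SMAD3 and FOXH1, together with WNT signals acting through β-catenin and TCF/LEF proteins, switch on its transcription factors, and activin and WNT agonists are commonly used to copy this in culture. EOMES is a T-box factor needed for definitive endoderm in the mouse, MIXL1, GSC and OTX2 are paired-like homeodomain factors, LHX1 is a LIM homeodomain factor that works with the cofactor LDB1, and MESP1 is a basic helix-loop-helix factor of early cardiac mesoderm.

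EOMES lies at chr3:27715953-27722713, MIXL1 at chr1:226223664-226227060, GSC at chr14:94768223-94770113, LHX1 at chr17:36936785-36944612, MESP1 at chr15:89732446-89751249 and OTX2 at chr14:56799905-56810479 in RefSeq on GRCh38.p14. RefSeq promoter windows, 250 bases before to 50 after an annotated start, were held for 4 members in 5 entries, with 2 for OTX2. They are shown because each of these 4 genes fell in both comparisons with DE, and their best known inputs act on DNA. LHX1, which fell as well, is not shown. Capitals mark a TATA box (TATAAA), a TCF/LEF site (CTTTGAT) or a FOXH1 site (AATNCACA), read on both strands. The downstream OTX2 start is shown.
MIXL1 (chr1:226223414-226223713, plus strand): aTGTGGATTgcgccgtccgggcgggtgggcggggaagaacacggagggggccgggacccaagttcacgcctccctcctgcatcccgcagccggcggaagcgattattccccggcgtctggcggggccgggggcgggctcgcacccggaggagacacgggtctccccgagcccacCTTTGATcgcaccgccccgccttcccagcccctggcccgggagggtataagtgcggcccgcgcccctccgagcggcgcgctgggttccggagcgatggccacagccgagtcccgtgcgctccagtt
EOMES (chr3:27722274-27722573, minus strand): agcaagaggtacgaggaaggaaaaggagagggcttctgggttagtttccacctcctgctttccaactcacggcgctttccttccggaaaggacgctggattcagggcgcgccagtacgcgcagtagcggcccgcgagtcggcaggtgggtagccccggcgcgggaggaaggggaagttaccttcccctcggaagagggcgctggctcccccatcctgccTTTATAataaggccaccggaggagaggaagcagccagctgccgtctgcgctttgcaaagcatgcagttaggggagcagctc
GSC (chr14:94770064-94770363, minus strand): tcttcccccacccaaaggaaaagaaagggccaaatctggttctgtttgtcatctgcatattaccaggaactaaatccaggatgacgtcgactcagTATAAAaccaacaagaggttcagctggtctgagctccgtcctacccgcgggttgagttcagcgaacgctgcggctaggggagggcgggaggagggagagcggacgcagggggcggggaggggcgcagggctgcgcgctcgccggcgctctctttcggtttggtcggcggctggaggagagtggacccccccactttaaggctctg
OTX2 (chr14:56805618-56805917, minus strand): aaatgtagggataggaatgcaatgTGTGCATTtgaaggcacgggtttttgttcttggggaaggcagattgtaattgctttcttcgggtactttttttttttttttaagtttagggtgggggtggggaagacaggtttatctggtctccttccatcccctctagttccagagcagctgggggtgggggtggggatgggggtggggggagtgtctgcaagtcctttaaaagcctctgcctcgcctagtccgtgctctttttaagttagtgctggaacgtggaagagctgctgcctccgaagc
The motifs were chosen after the sequences had been seen, and a match is a description only. The MIXL1 window held a TCF/LEF match whose first base lies at position -76 from the start and a FOXH1 match on the reverse strand at -249. The downstream OTX2 window held a FOXH1 match on the reverse strand at -226, and the upstream OTX2 window at chr14:56810430-56810729 held none of the capitalised motifs. A TATA box match lay at -31 on the reverse strand in the EOMES window and at -155 in the GSC window. Of 34943 RefSeq promoter windows of the same length, 2.63% held CTTTGAT, 3.32% held AATNCACA and 11.6% held TATAAA. A T-box site (AGGTGTGA, in 0.982% of windows) and a site for the GSC and OTX2 class of homeodomain (GGATTA, in 6.36%) were searched as well, and neither was found in the 5 windows. GGATTA contains the homeodomain core TAAT on the reverse strand, and that core was in 50.3% of all windows.

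Total counts ranged over 15107847 to 21009065 per RNA library and over 4710335 to 24186949 per Ribo library. Libraries were scaled by the trimmed mean of M-values (TMM), and levels are given as CPM, counts scaled to a common library size. PP2 replicate 3 stood apart among the RNA libraries, with a chi-square per degree of freedom of 120 and 130 against PP2 replicates 1 and 2, which differed from each other by 3.24. Among the Ribo libraries, the mitochondrial ribosomal RNA MT-RNR2 took 1.65% of counts in PP2 replicate 1 and 11.0% in PP2 replicate 3, against 44.6% to 60.8% in the others. Each pair of Ribo PP2 libraries differed widely, with a chi-square per degree of freedom of 766, 232 and 248. Between the Ribo libraries of DE it was 10.6, and between those of PP1 8.67. The stage labels were checked on defining genes. SOX17, an endoderm factor, averaged 470 ± 22.5 CPM in DE RNA (SD, n = 2). PDX1, a pancreatic factor, had no count in DE RNA, 61.1 ± 4.14 CPM in PP1 RNA (SD, n = 2) and 151 ± 94.4 CPM in PP2 RNA (SD, n = 3). Its PP2 libraries ranged over 42.1 to 212 CPM and overlapped the PP1 libraries at 58.2 to 64.0 CPM. PDX1 RNA thus does not separate each PP2 library from PP1. In Ribo, PDX1 had 17.7 to 20.7 CPM in PP1 and 60.5 to 83.9 CPM in PP2, without overlap. NKX6-1, another pancreatic factor, averaged 0.448 ± 0.0452 CPM in PP1 RNA (SD, n = 2) and 118 ± 41.6 CPM in PP2 RNA (SD, n = 3).

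At PP1, the 5 members that could be tested were far below their DE levels, in RNA and in ribosome-bound RNA alike. EOMES, MIXL1, GSC, LHX1 and OTX2 fell in RNA, and the same 5 fell in the Ribo libraries. OTX2, whose RNA fell by 3.17 on the log2 scale, had the smallest fitted change of them, and GSC was down to 1 count in the PP1 RNA libraries together. In RNA, 5 of the 5 tested members fell, where 12.0% of the 24603 tested genes were called lower. In Ribo, 5 of 5 fell, where 3.01% of 15067 tested genes were called lower. The members' median log2 difference was -7.48 in RNA and -6.75 in Ribo, against 0.01 and -0.04 over all tested genes. The test was edgeR's quasi-likelihood test with Benjamini-Hochberg (BH) adjustment over all tested genes, with calls made at an adjusted p under 0.05. In such bulk samples, fewer cells expressing a gene and less RNA per cell cannot be told apart.

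**Figure D1:**
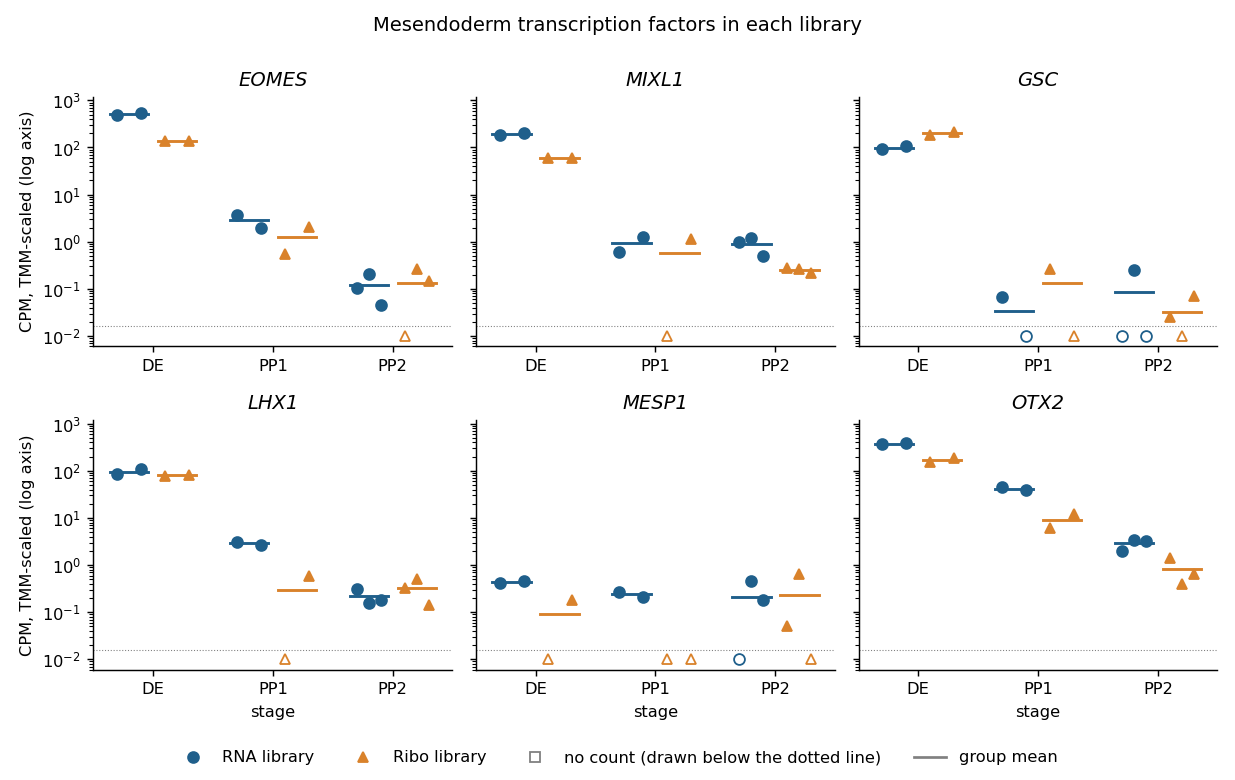
Levels of the 6 members in each library, as CPM over TMM-scaled library sizes on a log axis, with RNA libraries as circles, Ribo libraries as triangles and group means as lines. Open symbols are libraries with no count, drawn below the dotted line. EOMES, MIXL1, GSC, LHX1 and OTX2 are high in the DE libraries of both assays and MESP1 is under 1 CPM throughout.

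EOMES, the T-box factor, had 3.77 and 1.92 CPM in the PP1 RNA libraries, against 479 and 529 CPM in the DE RNA libraries. In Ribo it had 0.538 and 2.03 CPM in PP1, against 138 and 136 CPM in DE. The stages did not overlap in either assay, and the DE libraries of each assay lay close together. EOMES RNA was 179-fold lower in PP1 (log2 fold change -7.48 ± 0.43 SE, adjusted p = 2.25e-05 by edgeR with BH). Ribo EOMES was lower by a log2 fold change of -6.75 ± 0.77 (adjusted p = 5.1e-04), on 9 counts in PP1. That Ribo value was -6.04 without PP1 replicate 1 and -7.94 without PP1 replicate 2.

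MIXL1, the Mix-like homeodomain factor of the primitive streak, had 0.617 and 1.25 CPM in PP1 RNA, against 188 and 207 CPM in DE RNA. Its Ribo libraries held no count and 1.16 CPM in PP1, against 59.0 and 58.5 CPM in DE. Both stages were again apart in each assay, and PP1 rested on 33 counts in RNA and 4 in Ribo. The log2 fold change was -7.68 ± 0.44 in RNA (adjusted p = 2.23e-05, edgeR with BH) and -6.68 ± 0.74 in Ribo (adjusted p = 4.27e-04). The RNA value was -8.31 without PP1 replicate 2, and the Ribo value was -5.62 without PP1 replicate 1. Without PP1 replicate 2, no Ribo count of MIXL1 was left in PP1.

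GSC encodes goosecoid, a transcriptional repressor of the embryonic organizer region. It had 0.0685 CPM and no count in the PP1 RNA libraries, against 91.9 and 106 CPM in DE RNA. In Ribo it had 0.269 CPM and no count in PP1, against 183 and 218 CPM in DE. A single count in PP1 carried each assay's value, so the difference is given as a ratio of counts with an exact 95% interval for counting error only. GSC was 3334 times lower in PP1 RNA (598 to 131735) and 1432 times lower in PP1 Ribo (257 to 56583). The adjusted p was 6.43e-05 in RNA and 1.27e-04 in Ribo (edgeR with BH).

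OTX2, a homeodomain factor of anterior endoderm and of the forebrain, had 44.3 and 39.1 CPM in PP1 RNA, against 368 and 384 CPM in DE RNA. Its Ribo level was 6.19 and 11.9 CPM in PP1, against 153 and 187 CPM in DE. The stages did not overlap, yet OTX2 was the only member above 5 CPM in the PP1 RNA libraries. RNA was lower by a log2 fold change of -3.17 ± 0.27 (adjusted p = 1.1e-04, edgeR with BH), or 9.01-fold. In Ribo the log2 fold change was -4.24 ± 0.55 (adjusted p = 9.4e-04), or 18.9-fold.

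LHX1, the LIM homeodomain factor, had 3.08 and 2.70 CPM in PP1 RNA, against 84.0 and 109 CPM in DE RNA. In Ribo it had no count and 0.581 CPM in PP1, against 79.2 and 81.9 CPM in DE. The RNA of PP1 still amounted to 97 counts, while the Ribo libraries of PP1 held 2 counts. RNA was lower by a log2 fold change of -5.06 ± 0.28 (adjusted p = 1.84e-05, edgeR with BH). Ribo LHX1 was 288 times lower in PP1 by counts, with an exact 95% counting interval of 79.6 to 2385 (adjusted p = 2.33e-04, edgeR with BH).

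The count table gave little sign of MESP1 at any stage. It had 7 and 7 counts in DE RNA, 4 and 4 in PP1 RNA, and 0, 9 and 4 in PP2 RNA. In Ribo it had 0 and 1 counts in DE, none in PP1, and 2, 5 and 0 in PP2. MESP1 missed the low-count filter in both assays, so it entered no test, and no fold is given for Ribo. Its RNA in PP2 was 2.04 times lower than in DE by counts, with a 95% counting interval of 0.890 to 4.72 that includes no difference. MESP1 overlaps WDR93 in RefSeq and the strand setting of the counting was not given, so even these counts may belong to either gene. The DE cultures thus carried RNA of 5 of the 6 members at over 80 CPM and of MESP1 at under 1 CPM.

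**Figure D2:**
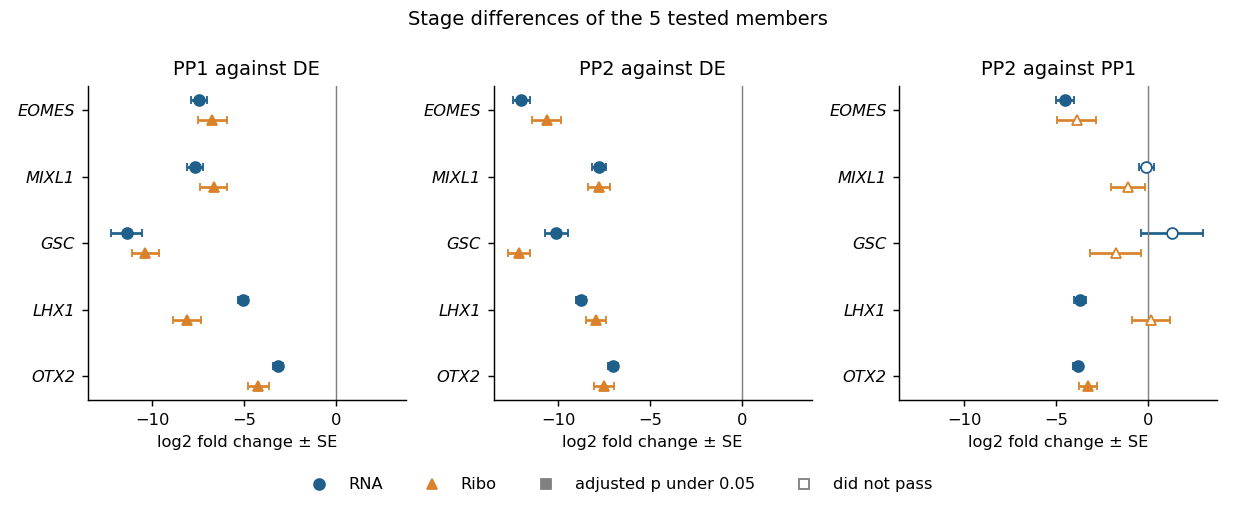
Log2 fold change ± SE of the 5 tested members in PP1 against DE, PP2 against DE and PP2 against PP1, for RNA (circles) and Ribo (triangles), with filled symbols for an adjusted p under 0.05. Each symbol of the comparisons with DE is filled and left of 0, while in PP2 against PP1 EOMES, LHX1 and OTX2 are filled in RNA and OTX2 in Ribo. Values for GSC, for MIXL1 and LHX1 where Ribo PP1 enters, and for EOMES where Ribo PP2 enters rest on 5 counts or fewer in a stage and depend on the fit's prior count.

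At PP2, EOMES, LHX1 and OTX2 fell further in RNA below their PP1 levels. The differences of MIXL1, at 33 counts in PP1, and of GSC, at 1 count, did not pass, and differences between members were not tested. EOMES RNA fell by 4.52 on the log2 scale, the largest of the 3 changes. In Ribo only OTX2 passed. In RNA 3 of 5 tested members fell, where 10.6% of tested genes were called lower in PP2 than in PP1. In Ribo 1 of 5 fell, where 2.85% were called lower, and 2 of 5 had an unadjusted p under 0.05.

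OTX2 had 2.04, 3.47 and 3.27 CPM in PP2 RNA, against 44.3 and 39.1 CPM in PP1 RNA. Its Ribo level was 1.42, 0.388 and 0.650 CPM in PP2, against 6.19 and 11.9 CPM in PP1. No PP2 library reached a PP1 library. The log2 fold change was -3.83 ± 0.25 in RNA (adjusted p = 1.62e-04, edgeR with BH) and -3.27 ± 0.50 in Ribo (adjusted p = 0.00695). The Ribo call was lost without PP1 replicate 2, which left 1 PP1 library (log2 fold change -2.66). Without PP2 replicates 1 and 3, the Ribo value was -4.45, on 3 counts in the 1 PP2 library left.

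EOMES had 0.104, 0.204 and 0.0461 CPM in PP2 RNA, or 7 counts in all, against 3.77 and 1.92 CPM in PP1. LHX1 had 0.313, 0.153 and 0.184 CPM in PP2 RNA, or 13 counts, against 3.08 and 2.70 CPM in PP1. Both were lower in each PP2 library than in either PP1 library. EOMES RNA fell with a log2 fold change of -4.52 ± 0.47 (adjusted p = 8.44e-04, edgeR with BH) and LHX1 RNA with -3.70 ± 0.31 (adjusted p = 3.55e-04). Without PP2 replicate 2, the EOMES value was -5.12. In Ribo, EOMES had 4 counts in PP2 and 9 in PP1, a log2 difference of -3.89 ± 1.04 that did not pass (adjusted p = 0.0563). It did pass with the DESeq2 Wald test (adjusted p = 0.00105), without a low-count filter (adjusted p = 0.00131) and without PP2 replicate 2 (adjusted p = 0.00654), and over all alternatives the adjusted p ranged over 0.00105 to 0.513. Ribo LHX1 had 19 counts in PP2 and 2 in PP1, and scaled for library size the PP1 and PP2 libraries overlapped.

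MIXL1 stayed measurable in RNA, with 0.992, 1.17 and 0.507 CPM in PP2, against 0.617 and 1.25 CPM in PP1. The stages overlapped, and the log2 difference was -0.11 ± 0.41 (adjusted p = 0.881, edgeR with BH). GSC had 0, 5 and 0 counts in PP2 RNA and 1 and 0 in PP1 RNA, so all of its PP2 RNA came from 1 library. In Ribo, MIXL1 had 11, 2 and 3 counts in PP2 and GSC had 1, 0 and 1.

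Against DE, the 5 tested members fell at PP2 in both assays, where 17.1% of tested genes were called lower in RNA and 14.5% in Ribo. The log2 fold changes in RNA were -12.00 ± 0.46 for EOMES, -10.11 ± 0.63 for GSC, -8.76 ± 0.29 for LHX1, -7.79 ± 0.37 for MIXL1 and -7.00 ± 0.27 for OTX2. The highest adjusted p among them was 1.56e-05 (edgeR with BH). Ribo log2 fold changes were -10.64 ± 0.77 for EOMES, -7.96 ± 0.55 for LHX1, -7.77 ± 0.60 for MIXL1 and -7.50 ± 0.53 for OTX2. GSC in Ribo, on 2 counts in PP2, was 6091 times lower (95% counting interval 1684 to 50329.8). The comparisons with DE share the DE libraries, so their agreement in sign is no independent support.

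Leaving out RNA PP2 replicate 3, which stood apart, kept the RNA calls. Without RNA PP2 replicate 3, the PP2 against DE log2 fold changes were -11.60 for EOMES, -9.50 for GSC, -8.65 for LHX1, -7.49 for MIXL1 and -7.08 for OTX2. Without Ribo PP2 replicates 1 and 3, the Ribo values were -8.87 for EOMES, -7.17 for LHX1, -7.65 for MIXL1 and -8.64 for OTX2. They rest on the 1 PP2 Ribo library left, with 2 counts of EOMES, 4 of LHX1, 2 of MIXL1 and 3 of OTX2. GSC had 0 counts in that library. Such values depend on the fit's prior count. Without RNA PP2 replicate 2, GSC had no count left in PP2 RNA and EOMES stood at -12.60. Without Ribo PP2 replicate 1, EOMES stood at -9.37 and OTX2 at -8.23, and without Ribo PP2 replicate 2 EOMES stood at -11.38.

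Levels were ranked between genes per kilobase of the exon length given in the count table. That length also takes in untranslated sequence, so the Ribo order may differ per kilobase of coding sequence, which was not used. Before division by length, LHX1 averaged 80.6 CPM in DE Ribo and MIXL1 58.8 CPM, the reverse of their order below. In DE RNA, EOMES led with 138 ± 9.63 CPM per kilobase, followed by OTX2 with 115 ± 3.46, MIXL1 with 97.4 ± 6.62, GSC with 78.3 ± 7.93, LHX1 with 19.7 ± 3.57 and MESP1 with 0.186 ± 0.0148 (SD, n = 2). No neighbours in that order overlapped between libraries. In DE Ribo the order was GSC with 158 ± 19.6 CPM per kilobase, OTX2 with 52.1 ± 7.33, EOMES with 37.5 ± 0.300, MIXL1 with 29.0 ± 0.187, LHX1 with 16.5 ± 0.379 and MESP1 with 0.0382 ± 0.0541 (SD, n = 2). Again no neighbours overlapped. The EOMES RNA level per kilobase was above that of 99.6% of the 36788 genes with a count in DE RNA, and the GSC level was above 99.4% of the 26047 genes with a count in DE Ribo. LHX1, with the longest exon length of the members, was above 94.4% of them in each assay.

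At PP1 the order had changed. OTX2 led in RNA with 12.7 ± 1.14 CPM per kilobase, clear of EOMES with 0.779 ± 0.357, LHX1 with 0.593 ± 0.0552 and MIXL1 with 0.459 ± 0.220 (SD, n = 2). The libraries of the last 3 overlapped from each gene to the next. OTX2 made up 25.6% of the members' summed CPM per kilobase in DE RNA, 86.7% in PP1 RNA and 57.0% in PP2 RNA. In PP2 RNA it still led, with 0.894 ± 0.238 CPM per kilobase, then MIXL1 with 0.439 ± 0.170 (SD, n = 3), and the libraries of the other members overlapped. OTX2 also led in PP1 Ribo, with 2.76 ± 1.24 CPM per kilobase (SD, n = 2), while in PP2 Ribo its libraries overlapped those of MIXL1.

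**Figure D3:**
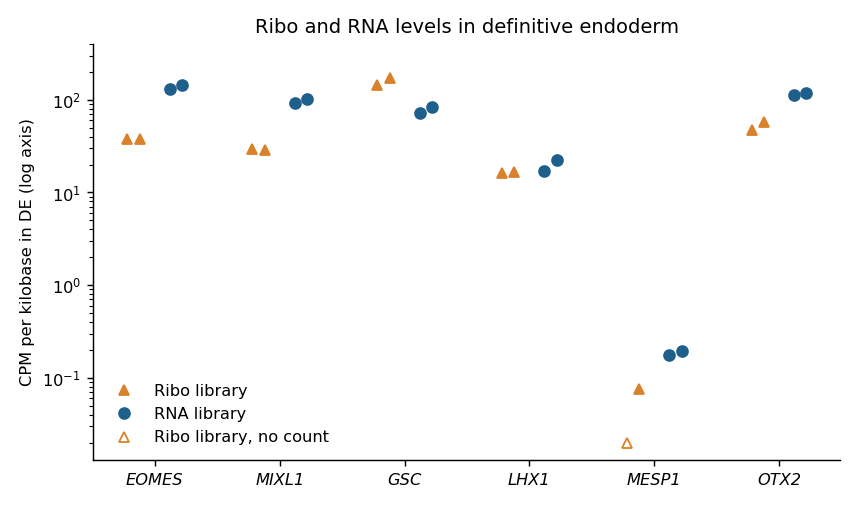
Levels of the members in the DE libraries in CPM per kilobase of exon length on a log axis, with Ribo libraries (triangles) left of RNA libraries (circles). GSC leads in Ribo at 144 to 172 and EOMES leads in RNA at 131 to 145. The assays were scaled separately, so the heights give the order within an assay and no difference between assays. Exon length includes untranslated sequence, so the Ribo order may differ per kilobase of coding sequence.

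Within DE, 1 of the 5 tested members, GSC, was called higher in Ribo relative to RNA, where 18.4% of 14152 genes tested in both assays were called higher. That share is near the background and is no result about the members as a group. The GSC Ribo level relative to its RNA level was higher by a log2 difference of 2.12 ± 0.47 (adjusted p = 0.00306, edgeR with BH), set against all tested genes by the scaling. That ratio was above those of 90.5% of the tested genes. LHX1 also had a positive difference of 0.84 ± 0.35 and did not pass (adjusted p = 0.0726), though it passed without RNA PP2 replicate 3 (adjusted p = 0.0489) or without Ribo PP2 replicate 2 (adjusted p = 0.0386). EOMES had -0.78 ± 0.46 (adjusted p = 0.198), MIXL1 -0.65 ± 0.40 (adjusted p = 0.211) and OTX2 -0.04 ± 0.37 (adjusted p = 0.946). Whether the counting of Ribo reads took in only coding sequence was not given in the sources used here, and it can affect these differences.

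Translation efficiency (TE), how far the log2 change in Ribo exceeds that in RNA, gave no call for a member. By edgeR with BH, 0 of 5 passed in PP1 against DE, in PP2 against DE and in PP2 against PP1, where 0.269%, 5.68% and 0.0777% of 14152 tested genes were called in either direction. The unadjusted p was under 0.05 for 1, 0 and 1 members, and DESeq2 and limma voom also passed 0 in each comparison. That member was LHX1 in each case. Its TE difference was -3.03 ± 0.86 in PP1 against DE (adjusted p = 0.213) and 3.64 ± 0.95 in PP2 against PP1 (adjusted p = 0.174), both resting on the 2 Ribo counts of PP1. Without Ribo PP2 replicate 2, the PP2 against PP1 difference passed (3.42, adjusted p = 0.0421). For EOMES, MIXL1 and GSC the Ribo libraries of PP1 held 9 counts or fewer. The size of TE difference that could have been detected at the members' own counts was not measured.

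The genes whose course over the 14 libraries came closest to each member were found by a distance between log2 CPM profiles, each centred on its own DE mean in each assay. There were 7440 candidates, and each was tested in both assays with at least 10 CPM in DE RNA and in DE Ribo. EOMES was nearest to LEFTY2, a Nodal antagonist (distance 3.40), the zinc finger factor ZIC2 (3.59) and the clotting protein gene VWF (4.02), against a median distance of 28.6. MIXL1 was nearest to GAL, the galanin precursor (1.93), NMNAT1P3 (3.04) and AC104257.1 (3.08), against a median of 23.5. NMNAT1P3 is named as a pseudogene, and its reads may come from related sequence.

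GSC was nearest to FGF17, a fibroblast growth factor (3.74), SHISAL2B (5.14) and LEFTY2 (5.20), against a median distance of 30.3. LHX1 was nearest to the homeobox gene VENTX (2.50), IFITM1 (4.02) and GAL (4.07), against a median of 23.4. OTX2 was nearest to FST, which encodes the activin-binding protein follistatin (2.34), VRTN (2.92) and FOXH1, the SMAD partner factor (3.28), against a median of 19.5. FST averaged 360 CPM in DE RNA, 34.7 CPM in PP1 RNA and 2.91 CPM in PP2 RNA. Between members the distance was smallest for MIXL1 and LHX1 (4.28) and largest for GSC and OTX2 (13.1). Where PP1 and PP2 hold only a few counts, such a distance also follows how high the gene stood in DE.

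A list of 24 Nodal and WNT pathway genes was read. It held inputs of the members together with antagonists such as CER1 and LEFTY1, so its counts are not those of inputs alone. Of 22 tested in RNA, 11 fell and none rose in PP1 against DE, where 12.0% of all tested genes were called lower and 12.3% higher, with a median log2 difference of -0.93. CER1, a secreted Nodal, BMP and WNT antagonist, had 0.822 to 1.25 CPM in PP1 RNA, against 4369 to 4562 CPM in DE RNA (log2 fold change -12.05). TDGF1, the Nodal co-receptor, had 15.7 to 16.2 CPM in PP1 RNA, against 729 to 752 CPM in DE RNA (log2 fold change -5.54). CTNNB1, which encodes β-catenin, averaged 468 CPM in PP1 RNA, against 670 CPM in DE RNA, and did not pass (log2 fold change -0.52). Of the other factors said above to carry these signals, SMAD2 (log2 fold change -0.59) and SMAD3 (0.18) did not pass. Nor did LEF1 (-0.84), TCF7 (0.66), TCF7L1 (-0.69) and TCF7L2 (-0.22), while FOXH1 fell (-2.58). These genes were named after their values were seen. In PP2 against PP1, where 10.6% of tested genes were called lower and 7.80% higher, 6 of the list fell and 1 rose. The riser was the Nodal antagonist LEFTY1, with 2.35 to 6.73 CPM in PP2 RNA, against 0.208 to 0.274 CPM in PP1 RNA (log2 fold change 4.03).

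Other primitive streak and early mesoderm genes numbered 16, of which 12 were tested in RNA. In PP1 against DE, 8 fell and 1 rose, with a median log2 difference of -3.01, where 12.0% of all tested genes were called lower and 12.3% higher. FGF17 had 0.960 to 1.14 CPM in PP1 RNA, against 891 to 994 CPM in DE RNA (log2 fold change -9.79), and the forkhead factor FOXC1 had 1.10 to 1.40 CPM, against 84.0 to 87.1 CPM (log2 fold change -6.08). PDGFRA, a receptor of mesodermal cells, had 98.1 to 99.5 CPM in PP1 RNA, against 76.3 to 85.3 CPM in DE RNA, and did not pass (log2 fold change 0.29). The riser was SNAI2, a factor of epithelial to mesenchymal transition, at a low level of 1.35 to 1.78 CPM in PP1 RNA, against 0.237 to 0.598 CPM in DE RNA (log2 fold change 1.90). In PP2 against PP1, 3 fell and 2 rose, where 10.6% of all tested genes were called lower and 7.80% higher. The risers were the endothelial receptor KDR (log2 fold change 2.05) and FOXC1 (0.84).

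Cofactors of the members and endoderm genes were read from lists in the same way. In PP1 against DE, 12.0% of all tested genes were called lower in RNA and 12.3% higher. Of 12 cofactor genes, 3 fell and none rose in that comparison, with a median log2 difference of -0.29. SSBP3, a partner of LDB1, averaged 266 CPM in PP1 RNA, against 764 CPM in DE RNA, TCF3, an E protein that pairs with helix-loop-helix factors, 276 CPM against 326 CPM, and the corepressor TLE3 183 CPM against 236 CPM. None of these 3 passed. The 3 that fell were LDB2 (log2 fold change -3.53), the corepressor TLE1 (-1.08) and the E protein TCF4 (-0.96), named after their values were seen. Of 12 definitive endoderm genes, 4 fell and 2 rose, with a median log2 difference of -0.42. SOX17 had 9.41 to 13.2 CPM in PP1 RNA, against 454 to 486 CPM in DE RNA (log2 fold change -5.38), and GATA6 159 to 207 CPM, against 533 to 571 CPM (log2 fold change -1.59). GATA4 did not pass (log2 fold change 0.37), and the forkhead genes FOXA1 (3.91) and FOXA3 (0.81) rose.

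**Figure D4:**
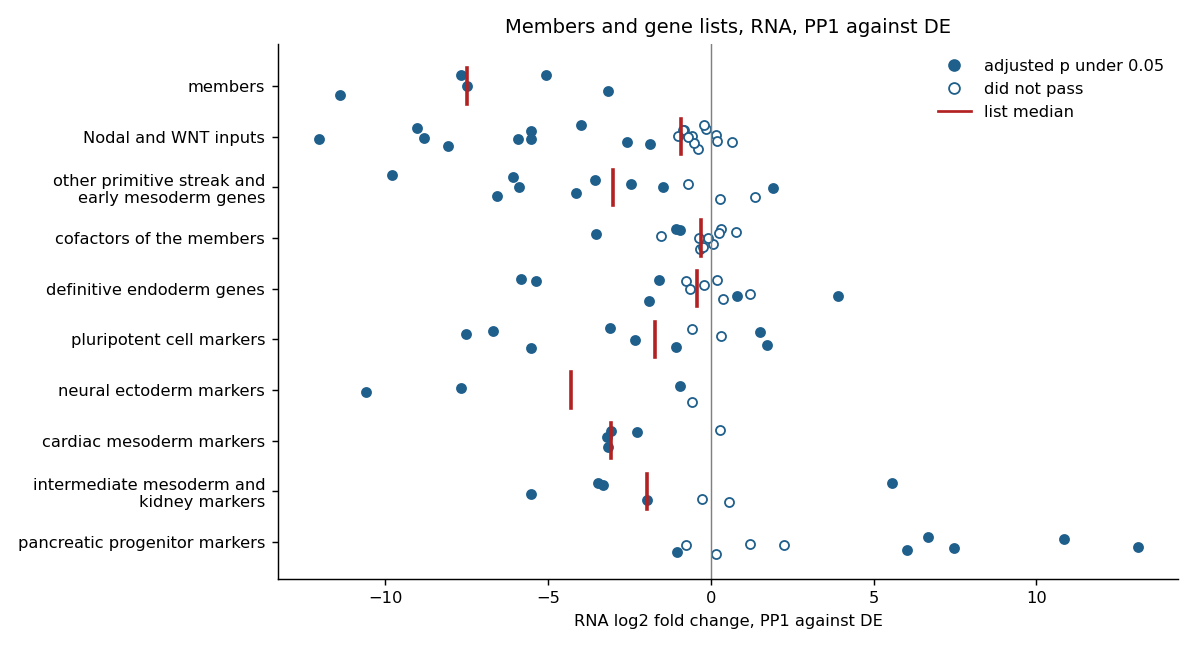
RNA log2 fold change in PP1 against DE for the tested members and for the tested genes of each list, with filled circles for an adjusted p under 0.05. Red lines are list medians, left out for the pancreatic markers because that median depends on genes with 3 counts or fewer in a stage. The 5 members lie between -11.40 and -3.17, and the cofactors have a median of -0.29. The row labelled Nodal and WNT inputs also holds antagonists of these pathways.

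Markers of other cell types moved over the same stages, and their part in the members' results was not tested. The 11 pluripotent cell markers summed to 3360 to 3435 CPM in DE RNA, 1280 to 1328 CPM in PP1 and 711 to 866 CPM in PP2. LIN28A, an RNA-binding protein, made up most of the PP1 and PP2 sums, with a mean of 1603 CPM in DE RNA, 1076 CPM in PP1 and 664 CPM in PP2. It did not pass in PP1 against DE (log2 fold change -0.58, adjusted p = 0.0772, edgeR with BH). Next in DE came TDGF1, which is also in the Nodal list, and L1TD1 with 505 CPM in DE RNA, which fell in PP1 (log2 fold change -3.11). POU5F1, the defining pluripotency factor, averaged 28.7 CPM in DE RNA, 0.147 CPM in PP1 and 0.424 CPM in PP2. In PP1 against DE, 6 of the 10 tested fell and 2 rose, where 12.0% of all tested genes were called lower and 12.3% higher. The risers were SOX2 (log2 fold change 1.74) and ZFP42 (1.50). UTF1 had no count in PP1 and PP2 RNA.

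The 10 neural ectoderm markers, of interest because OTX2 also marks forebrain, summed to 156 to 164 CPM in DE RNA, 13.4 to 14.2 CPM in PP1 and 24.5 to 29.3 CPM in PP2. PAX6 led them with 102 CPM in DE RNA, then SIX3 with 31.0 CPM and ZIC1 with 24.3 CPM, and SOX1, a defining neural factor, averaged 0.166 CPM. Of the 4 tested, 3 fell in PP1 against DE, where 12.0% of all tested genes were called lower and 12.3% higher. SOX1, SIX6, LHX2 and RAX had no count in PP1 RNA. The 8 kidney and intermediate mesoderm markers, which bear on LHX1, summed to 106 to 109 CPM in DE RNA, 36.0 to 46.1 CPM in PP1 and 9.26 to 15.3 CPM in PP2. Most of the DE sum was GATA3 with 84.3 CPM, followed by EYA1 with 8.75 CPM and PAX2 with 5.99 CPM, and 4 of 7 tested fell in PP1 against DE while OSR1 rose (log2 fold change 5.55). The 8 cardiac mesoderm markers, which bear on MESP1, summed to 46.4 to 56.0 CPM in DE RNA, 10.6 to 11.9 CPM in PP1 and 4.03 to 4.65 CPM in PP2, led by MYL7 with 21.5 CPM, ISL1 with 10.8 CPM and TBX5 with 8.51 CPM in DE. Of 5 tested, 4 fell in PP1 against DE, and MYH6 had no count in DE RNA. Of the 10 pancreatic progenitor markers, 5 rose in PP1 against DE and 1 fell, MNX1 (log2 fold change -1.04). FOXA2 did not pass (log2 fold change -0.78). ONECUT2 averaged 2286 CPM in PP1 RNA, against 12.9 CPM in DE RNA (log2 fold change 7.47).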

How the data were processed

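RNA sequencing and ribosome profiling of HUES8 cells at 3 stages were read from 1 deposited table of raw counts per gene and library, made by the authors. Per the submitters' processing notes, cutadapt 1.18, Bowtie 1.2, STAR 2.7.1a and featureCounts 1.6.4 were used with hg38 (GRCh38). The sources used here give no strand setting, annotation release or counted feature type. The deposited table also gives an exon length per gene, used for levels per kilobase. All 14 count columns were matched to samples, and 0 were left out.

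Each assay was fitted as 3 stage groups in edgeR 4.0.16, run in R 4.3.3: filterByExpr with a minimum count of 10 and a minimum total of 15, TMM scaling, estimateDisp, glmQLFit and the quasi-likelihood F test, with BH adjustment over all tested genes. SE is the log2 fold change over the root of F. TE was the interaction in 1 fit of 14 libraries in 6 groups. The scripts were tested on simulated data. With all libraries in, a stage difference with 3 counts or fewer in the lower group is given as a ratio of counts. Its exact 95% binomial interval covers counting error only. PCR copies are not independent molecules. Profiles for distances used a prior count of 2.

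Named were the 6 members, from each list the 3 genes with the highest RNA level in DE and any that passed against the list's median (at most 3), and the 3 nearest profiles per member. Outside this rule, defining markers and markers with no count were named after their values were seen. Some list genes are not reported here by name. The list medians printed were the same to 2 decimals with such low genes at their count ratio. Members, lists and tests were chosen with earlier results of these data known. Replicate numbers are shared across stages and assays, but the deviations of same-numbered libraries did not all correlate, so the numbers were not taken as pairs. Alternatives were DESeq2 1.42.0 size factors and its Wald test, TMM leaving out 535 structural noncoding or mitochondrially encoded genes, no filter, limma 3.58.1 voom, a replicate block, only the stages compared, and leaving out libraries. Promoter sequences are from RefSeq on GRCh38.p14.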

Additional observations from a re-analysis of the deposited data

How the results depend on the processing

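The 5 tested members fell in PP1 against DE and in PP2 against DE, in RNA and in Ribo, under each alternative run, and EOMES, LHX1 and OTX2 fell in RNA in PP2 against PP1 under each. In Ribo PP2 against PP1, members that passed numbered 1, against 2 without a filter and 2 with the DESeq2 Wald test, the added one being EOMES, and 0 to 2 when libraries were left out in turn. They were 0 without PP1 replicate 2 and 2 without PP2 replicate 2. For TE in PP2 against PP1 they were 0 to 1, and for Ribo against RNA within DE 1 to 2, when libraries were left out. Of differences that did not pass, some changed sign. MIXL1 in RNA PP2 against PP1 was 0.17 with the replicate block, MIXL1 TE in PP2 against DE was 0.25 without a filter and 0.0398 with limma voom, and OTX2 TE in PP2 against PP1 was -0.81 without Ribo PP2 replicates 1 and 3. Leaving libraries out moved RNA PP2 against PP1 over -0.50 to 0.52 (MIXL1) and -2.38 to 3.74 (GSC), and Ribo PP2 against PP1 over -2.61 to 2.14 (GSC), -0.80 to 5.04 (LHX1) and -2.06 to 4.77 (MIXL1). TE in PP1 against DE ranged over -4.06 to 2.71 (GSC), -0.42 to 1.54 (EOMES) and -5.86 to 2.17 (MIXL1), and in PP2 against DE over -0.44 to 0.0922 (MIXL1) and -3.02 to 0.69 (GSC). TE in PP2 against PP1 ranged over -0.56 to 1.61 (EOMES), -5.14 to 1.76 (GSC), -2.16 to 5.87 (MIXL1) and -0.35 to 1.06 (OTX2), and OTX2 within DE over -0.19 to 0.11. Some of these fits left a stage with 0 counts of the gene, so the ends of the ranges depend on the fit's prior count. Without Ribo PP1 replicate 2, MIXL1 and LHX1 had 0 counts in Ribo PP1, and MIXL1 took its values of 4.77, -5.86 and 5.87. GSC had 0 counts in Ribo PP1 without replicate 1 (2.14 in Ribo PP2 against PP1). It had 0 in PP2 RNA without replicate 2 (-2.38 in RNA PP2 against PP1). Causes of the other changes were not tested.

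With only 5 members tested, their counts of calls had little room to vary. Whole-table counts of calls varied over the alternatives. In RNA they were 5979 (PP1 against DE), 8240 (PP2 against DE) and 4533 (PP2 against PP1), and over the alternatives 2935 to 11997, 4216 to 12649 and 1210 to 9984. In Ribo they were 1135, 4153 and 755, over 424 to 3149, 1682 to 6837 and 58 to 3474. For TE they were 38, 804 and 11, over 6 to 221, 52 to 3704 and 0 to 1110, and within DE 5208, over 2554 to 6128. With the replicate block by number, RNA gave 11711, 12475 and 9758 calls, Ribo 745, 1682 and 201, and TE 23, 455 and 3, while the counts of members that passed were the same as without it. Replicate 3 exists only at PP2, so in the RNA fit and in the Ribo fit this block also took PP2 replicate 3 out of the stage comparisons. Correlations of the deviations of same-numbered libraries lay between -0.227 and 0.173. Low counts at PP1 and PP2, such as 1 for GSC in PP1 RNA and 2 for LHX1 in PP1 Ribo, limit what these stages can show.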

Other observations

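LHX1-DT, the divergent transcript named after LHX1, was picked out after its values were seen. It had 224 and 252 counts in DE RNA, 14 and 15 in PP1 RNA and 3, 4 and 0 in PP2 RNA. Its RNA fell in PP1 against DE (log2 fold change -4.11 ± 0.50, adjusted p = 6.65e-04, edgeR with BH), as did that of LHX1. In Ribo it had 11 and 11 counts in PP1, against 72 and 40 in DE, a log2 difference of -1.70 ± 0.86 that did not pass (adjusted p = 0.278). LHX1 itself had 0 and 2 Ribo counts in PP1. The strand setting of the counting was not given.

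Paralogs of the members were low in RNA. TBR1, TBX21, GSC2, LHX5, MESP2, OTX1 and CRX summed to 2.46 to 3.32 CPM in DE RNA, against 1211 to 1335 CPM for the members. OTX1, the relative of OTX2, had the highest mean among these 7, at 1.27 CPM in DE RNA. It did not pass in PP1 against DE (log2 fold change -0.34) and fell in PP2 against DE (log2 fold change -3.02). MESP2, next to MESP1 in the genome, averaged 0.615 CPM in DE RNA. In Ribo the 7 paralogs summed to 7.80 to 10.9 CPM in DE. TBR1, like TBX21 a T-box gene, averaged 4.94 CPM on 55 counts in DE Ribo. TBR1 fell in PP2 against DE in Ribo (log2 fold change -5.04 ± 1.25, adjusted p = 0.0146, edgeR with BH), on 6 counts in PP2.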
